A study of Mus musculus with 13 samples.

Results

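The family described here is 7 chemokine receptor genes of tumor T cells, Ccr8, Ccr2, Ccr4, Cxcr3, Cxcr4, Cxcr6 and Cx3cr1, taken by their symbols as 7 of the 12963 genes in the deposited expression table. Their transcripts were measured by RNA-Seq in T cells that had been purified by FACS out of B16-F10 tumors, a transplantable mouse melanoma grown under the skin. Every animal was Foxp3-EGFP-DTR, control animals included, so that the endogenous Foxp3 gene drives both a green fluorescent protein and a receptor for diphtheria toxin (DTx), and DTx removes Foxp3-expressing regulatory T (Treg) cells. The 5 groups were Treg cells of animals given PBS (Treg PBS, 3 libraries), CD4+ Foxp3-negative conventional T (Tconv) cells of animals given PBS (CD4 PBS, 2 libraries) or DTx (CD4 DTx, 3 libraries), and CD8+ Tconv cells of animals given PBS (CD8 PBS, 2 libraries) or DTx (CD8 DTx, 3 libraries). The PBS Tconv libraries carry replicate numbers 2 and 3, the other groups numbers 1 to 3, and the labels give neither ages nor time points, nor whether animals were pooled. The labels do not say that libraries of a group came from separate animals. For these cell groups the paper reports biological replicates that were isolated on different days. The p-values measure the spread between these libraries only.

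Chemokine receptors are G protein-coupled receptors that steer leukocytes along gradients of small secreted proteins, the chemokines, and couple mainly to inhibitory G proteins. CCR7 holds naive T cells in lymphoid organs, whereas CXCR3, CXCR6 and CCR2 are typical of activated and tissue-homing T cells. CCR4 and CCR8 are known for type 2 helper and regulatory T cells, CX3CR1 for cytotoxic effector cells, and CXCR4 for a broad range of leukocytes that follow CXCL12.

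To show what lies at the start of receptors that differed between Treg, CD4 and CD8 cells in unlike ways, the RefSeq promoter window of 4 of them is given in mouse build GRCm38.p6, 250 bases before to 50 bases after the start of the gene, read 5′ to 3′ on the strand of the gene. All 7 receptors matched the promoter table. Capitals mark letters searched for on both strands, which were GATA (GATA factors), TGANTCA (AP-1, N being any base), TGTGGT (RUNX) and CCACCC (KLF), and in these windows the marked matches do not overlap. The windows are chr9:120091883-120092182 on the plus strand for Ccr8, chr9:114496495-114496794 on the minus strand for Ccr4, chr9:123806227-123806526 on the plus strand for Cxcr6 and chr9:120068247-120068546 on the minus strand for Cx3cr1.
Ccr8: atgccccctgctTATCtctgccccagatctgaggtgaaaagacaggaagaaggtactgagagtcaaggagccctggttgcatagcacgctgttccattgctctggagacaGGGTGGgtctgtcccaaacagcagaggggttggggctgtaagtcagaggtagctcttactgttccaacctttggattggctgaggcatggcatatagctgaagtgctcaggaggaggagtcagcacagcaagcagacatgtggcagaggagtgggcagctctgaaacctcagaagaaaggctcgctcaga
Ccr4: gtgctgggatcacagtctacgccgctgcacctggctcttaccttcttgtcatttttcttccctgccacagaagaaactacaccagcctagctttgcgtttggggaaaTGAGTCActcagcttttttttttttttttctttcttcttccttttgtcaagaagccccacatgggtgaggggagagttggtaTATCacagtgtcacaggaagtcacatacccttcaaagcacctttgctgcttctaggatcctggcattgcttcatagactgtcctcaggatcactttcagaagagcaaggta
Cxcr6: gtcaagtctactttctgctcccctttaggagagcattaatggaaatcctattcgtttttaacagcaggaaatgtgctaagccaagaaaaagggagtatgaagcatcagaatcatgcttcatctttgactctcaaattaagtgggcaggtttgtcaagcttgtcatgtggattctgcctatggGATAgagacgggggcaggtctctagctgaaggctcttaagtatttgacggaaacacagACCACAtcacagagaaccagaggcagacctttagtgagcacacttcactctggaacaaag
Cx3cr1: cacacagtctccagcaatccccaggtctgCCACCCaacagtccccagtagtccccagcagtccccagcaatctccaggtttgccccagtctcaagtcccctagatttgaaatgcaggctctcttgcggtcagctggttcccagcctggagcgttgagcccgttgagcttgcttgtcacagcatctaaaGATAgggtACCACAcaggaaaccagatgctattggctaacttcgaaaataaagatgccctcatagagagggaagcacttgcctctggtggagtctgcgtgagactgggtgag

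GATA was present in the windows of all 7 receptors and also in 57.9% of the 32851 promoters of the table. The AP-1 letters were found in Ccr4 alone among the receptors, 143 bases before the start, and in 7.81% of all promoters. The RUNX letters lay in the windows of Cx3cr1, Cxcr3 and Cxcr6, against 16.8% of all promoters, and in Cxcr6 they began 10 bases before the start. The KLF letters lay in Ccr8 and Cx3cr1, against 31.5%. Of 2 further motifs searched, the T-box letters TCACAC were found in Cxcr3 alone (14.5% of all promoters) and the forkhead letters GTAAACA in none of the 7 (3.65%). These matches describe letters in a window and were not tested for binding.

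In that annotation Ccr8 and Cx3cr1 are adjacent coding genes on chromosome 9, and Cxcr6 lies within Fyco1 and next to Xcr1. The strand setting of the read counting is not given in the sources used here, so reads of Cxcr6 and Fyco1, and of Cx3cr1 and the noncoding Gm33858, could not be told apart by strand. Fyco1 itself was at mean levels of 1135 to 1941 normalized reads in the 5 groups, under those of Cxcr6. How reads shared by related receptor genes were counted is known only as far as that unique alignments were used.

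Values are normalized reads, that is, reads of a gene divided by a size factor of the library, and libraries held 15947556 to 34140486 recovered reads. A single read was worth 0.661 to 1.37 units, so that counting error is small for the 7 receptors, whose lowest value was 32.0. Within groups, the counts of any pair of libraries differed by more than sampling (chi-square over its degrees of freedom, 43.5 to 244), and all 13 were kept as separate samples. Foxp3 was at 1178 to 1896 in Treg PBS and at 0 to 12.1 in all other libraries. Cd4 and Cd8a followed the labels, but Cd8a in the 3 CD4 DTx libraries came to 0.256%, 1.77% and 3.24% of the CD8 DTx mean. In turn, Cd4 in CD8 DTx replicates 1, 2 and 3 came to 1.56%, 0% and 0.152% of the CD4 DTx mean. The NK cell markers Ncr1, Klrb1c, Klra8 and Klri2 summed to 285 and 3574 in CD8 PBS and to between 646 and 5734 in CD8 DTx, highest in replicate 2 of each. Replicate 3 of every group expressed the Y-linked Ddx3y and no Xist, and the other replicates the reverse. Sex, replicate number and any day of isolation that goes with the number therefore cannot be told apart. In bulk samples a change in the share of cells that carry a transcript and a change in the amount per cell cannot be told apart either.

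A gene was called when limma on log2(value + 1), fitted over all 13 libraries, gave a Benjamini-Hochberg adjusted p-value under 0.05 and an absolute log2 fold change above 2, which is 4-fold. All 7 receptors passed the filter on low values and were among the 12667 genes tested. In Treg PBS against CD4 PBS 4 receptors were called, all higher, where 7.85% of all genes were called higher, 2.35% lower and 10.2% either way. Against CD8 PBS the same 4 receptors (Ccr8, Ccr2, Ccr4 and Cxcr3) were called higher in Treg PBS, beside 6.56% of all genes higher, 2.85% lower and 9.41% either way. The libraries did not overlap for 6 of the 7 receptors against CD4 PBS and for 4 of 7 against CD8 PBS, as for 56.7% and 58% of all genes.

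After Treg cell ablation 5 receptors were called higher in CD4 Tconv cells and 5 in CD8 Tconv cells, and none lower. The background in CD4 cells was 5.06% of all genes called higher, 1.79% lower and 6.85% either way. In CD8 cells it was 3.87%, 1.59% and 5.46%. Ccr8, Ccr2, Cxcr3 and Cxcr6 were on both lists, with Ccr4 as the fifth on the CD4 list and Cx3cr1 as the fifth on the CD8 list. Without CD4 PBS replicate 3 the CD4 count was 3, as it was when only CD4 DTx and CD4 PBS entered the fit. Without CD8 PBS replicate 3, the lower PBS library for these receptors, the CD8 count was 1 (Ccr2), and when only CD8 DTx and CD8 PBS entered the fit it was 0. The median log2 fold change of the 7 receptors was 2.87 in CD4 and 2.36 in CD8 cells, while that of all genes tested was -0.04 and -0.03. For 10 further chemokine receptors it was -0.33 and -0.26. The 7 were chosen with earlier results of these data known, so their counts and medians describe them and are no test of the family. Not overlapping between DTx and PBS libraries were 6 of 7 receptors in each cell type, against 46.3% of all genes in CD4 and 43.6% in CD8 cells.

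**Figure D1:**
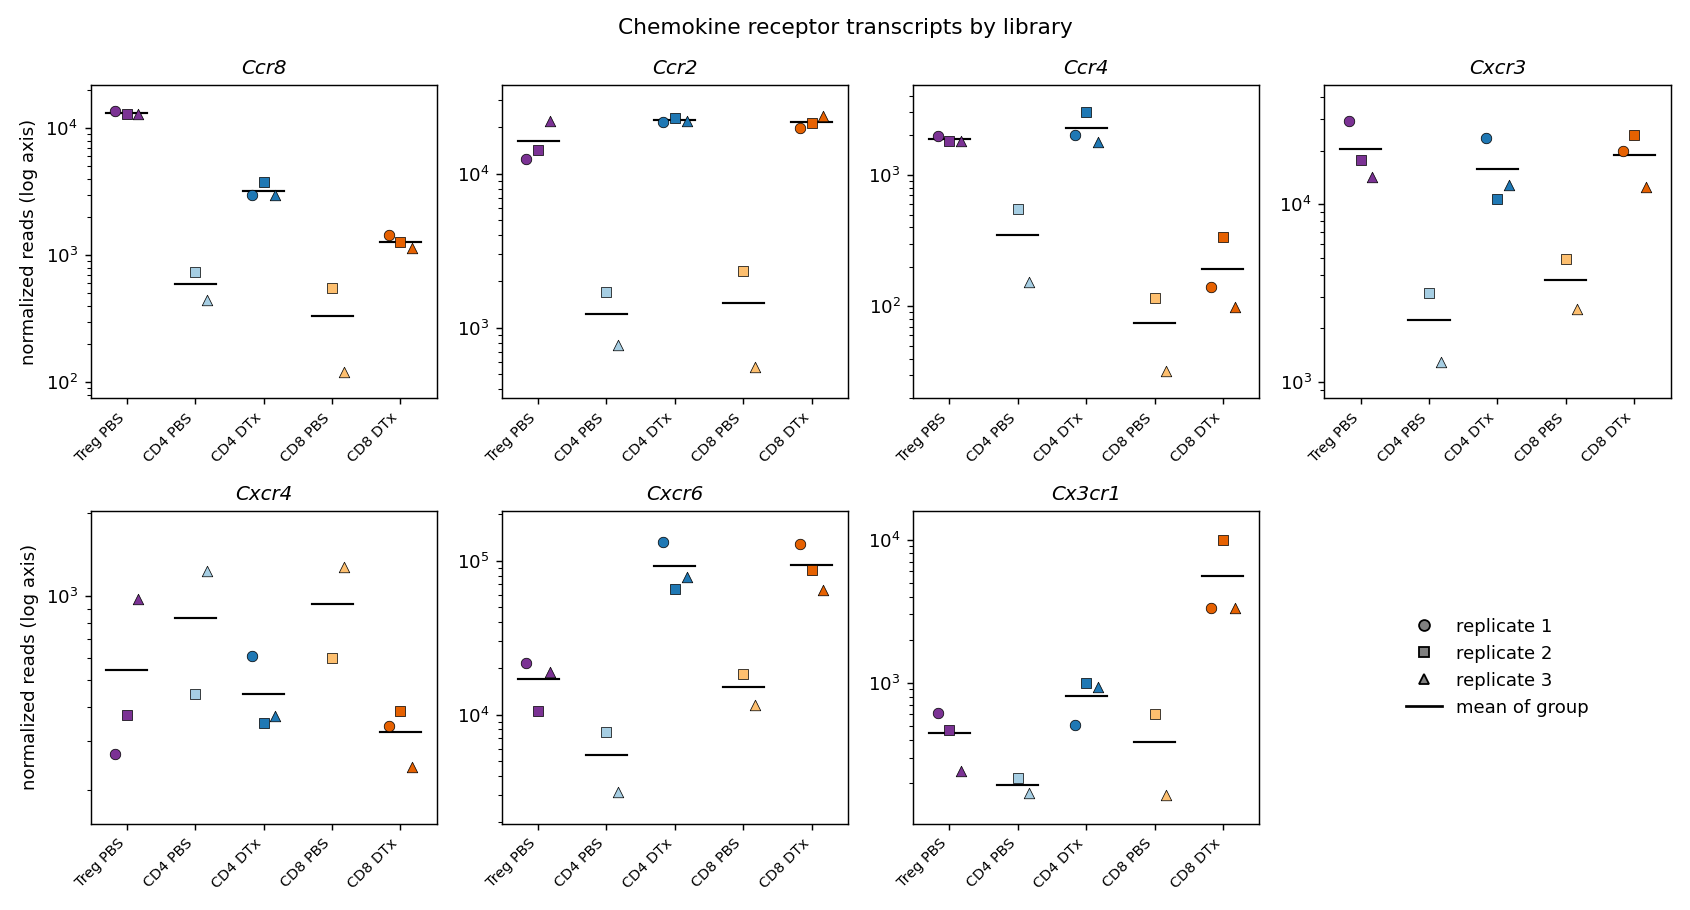
Normalized reads of the 7 receptors in each of the 13 libraries, on log axes whose ranges differ between panels. Points are libraries with the shape giving the replicate number, and bars are group means. Ccr8 is highest in Treg PBS, Ccr2 and Cxcr3 are lowest in both PBS Tconv groups, Cxcr6 is highest in both DTx groups and Cx3cr1 in CD8 DTx.

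Ccr8, the receptor for CCL1, separated Treg cells from all other groups. It was at 13693, 13045 and 12961 normalized reads in Treg PBS replicates 1, 2 and 3. In CD4 Tconv cells it was at 738 and 445 under PBS and at 2967, 3737 and 2976 under DTx. The corresponding CD8 values were 550 and 120.0 under PBS and 1442, 1264 and 1135 under DTx. The Treg values spanned 1.06-fold, and no library of another group came near them. CD4 DTx libraries all exceeded both CD4 PBS libraries, and CD8 DTx libraries both CD8 PBS libraries.

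Relative to CD4 PBS, Ccr8 was 22.4-fold higher in Treg PBS by the means and 4.53 higher on the log2 scale (SE 0.46, limma, adjusted p = 5.70e-05). The rise after DTx was 5.46-fold in CD4 cells, or 2.48 on the log2 scale (SE 0.46, limma, adjusted p = 0.00387). For CD8 cells the rise was 3.82-fold by the means and 2.30 on the log2 scale (SE 0.46, limma, adjusted p = 0.00825). Even so, Ccr8 stayed lower than in Treg PBS. The log2 difference was -2.04 (SE 0.41, limma, adjusted p = 0.0106) for CD4 DTx and -3.38 (SE 0.41, limma, adjusted p = 3.12e-04) for CD8 DTx. The CD4 difference is at the fold threshold, and its call was lost in 5 of 18 alternative settings, with values there between -1.91 and -1.999. The CD4 rise lost its call without CD4 PBS replicate 3 (log2 fold change 2.12, adjusted p = 0.0664), and the CD8 rise without CD8 PBS replicate 3 (1.21, adjusted p = 0.0748). With edgeR and DESeq2 the CD8 rise was 1.96 and 1.93, just under the threshold.

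Ccr4, which binds CCL17 and CCL22, was high in Treg cells and, after ablation, in CD4 cells. Its values were 1985, 1818 and 1801 normalized reads in Treg PBS and 2032, 3032 and 1788 in CD4 DTx, which overlap. CD4 PBS had 548 and 154. In CD8 cells Ccr4 was at 117 and 32.0 under PBS and at 139, 335 and 99.6 under DTx, so the DTx and PBS libraries overlapped and all lay below every Treg library.

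After DTx the log2 fold change of Ccr4 was 2.93 for CD4 cells (SE 0.64, adjusted p = 0.0102 in limma), whereas for CD8 cells it was 1.43 and not called (SE 0.64, adjusted p = 0.181 in limma). Against Treg PBS it was 0.25 in CD4 DTx, with a 95% interval of -0.996 to 1.504 (limma, adjusted p = 0.862), and -3.47 in CD8 DTx (SE 0.57, limma, adjusted p = 0.00245). Treg PBS exceeded CD4 PBS 5.32-fold (log2 fold change 2.68, SE 0.64, limma, adjusted p = 0.0118). Without CD4 PBS replicate 3, which was the lower of its group, the Treg difference was 1.77 (limma, adjusted p = 0.159) and the CD4 rise 2.02 (limma, adjusted p = 0.161), both no longer called. When only CD4 DTx and CD4 PBS entered the fit the rise missed the threshold too (limma, adjusted p = 0.0631).

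Ccr2, a receptor for CCL2 and related chemokines best known from monocytes, was high in Treg cells and in both DTx groups. Treg PBS libraries were at 12555, 14264 and 21903 normalized reads. CD4 cells went from 1697 and 773 under PBS to 21677, 22901 and 21958 under DTx, and CD8 cells from 2348 and 560 to 19795, 21294 and 23570. All DTx libraries were above all PBS Tconv libraries, and the DTx groups overlapped with each other and with Treg PBS.

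Ccr2 was called in both cell types after DTx, with log2 fold changes of 4.27 for CD4 (SE 0.49, adjusted p = 1.88e-04 in limma) and 4.23 for CD8 cells (SE 0.49, adjusted p = 5.07e-04 in limma), or 18.0- and 14.8-fold by the means. Treg PBS exceeded CD4 PBS 13.1-fold (log2 fold change 3.78, SE 0.49, limma, adjusted p = 2.46e-04). The difference to Treg PBS was 0.49 in CD4 DTx (95% interval -0.46 to 1.44) and 0.45 in CD8 DTx (-0.50 to 1.40), and neither was called. Marker genes of monocytes, macrophages and dendritic cells, which also express Ccr2, were summed beside it. The 11 markers came to 20370.5 to 25737 in Treg PBS, most of it Cd74, to 2201 to 2657 in CD4 PBS, 743 to 3872 in CD4 DTx, 1525 to 4782 in CD8 PBS and 2330 to 4176 in CD8 DTx, and Clec9a was at 0 in every library. In CD8 cells single markers went both ways between DTx and PBS libraries without overlap, Itgam (513 to 1606 against 13.3 to 205) and Cd68 (607 to 1055 against 124 to 273) being higher and Lyz2 (51.0 to 198 against 497 to 1321) and Siglech lower. In CD4 cells the markers overlapped except for Fcgr1, which was lower under DTx, and the part of such cells in the Ccr2 values was not tested.

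Cxcr3, the receptor for the interferon-induced chemokines CXCL9, CXCL10 and CXCL11, was likewise higher in Treg PBS and both DTx groups than in the PBS Tconv groups. Treg PBS libraries had 29299, 17724 and 14217 normalized reads. CD4 cells had 3154 and 1298 under PBS and 23544, 10661 and 12879 under DTx, and CD8 cells 4903 and 2579 under PBS and 19989, 24379 and 12512 under DTx. The lowest DTx library still exceeded the highest PBS library of either Tconv type. Its log2 fold change after DTx was 2.87 for CD4 (SE 0.48, adjusted p = 0.00188 in limma) and 2.36 for CD8 cells (SE 0.48, adjusted p = 0.00853 in limma). Treg PBS was 9.17-fold above CD4 PBS (log2 fold change 3.27, SE 0.48, limma, adjusted p = 5.57e-04) and 5.46-fold above CD8 PBS (2.45, SE 0.48, limma, adjusted p = 0.00404). The DTx groups differed from Treg PBS by -0.40 (95% interval -1.33 to 0.53) and -0.09 (-1.02 to 0.84), and neither was called. When only the compared groups entered the fit the CD4 rise missed the threshold (limma, adjusted p = 0.0502). Without CD8 PBS replicate 3 the CD8 rise was 1.90 and the Treg difference to CD8 PBS 1.99, and neither kept its call.

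Cxcr6, whose ligand CXCL16 is made by myeloid cells among others, reached the highest levels of the family. In CD4 cells it was at 7748 and 3118 normalized reads under PBS and at 131970, 65866 and 77964 under DTx. In CD8 cells it was at 18430 and 11594 under PBS and at 129136, 86490 and 64091 under DTx. Treg PBS had 21627, 10504 and 18926. Every DTx library was above every Treg library, and Treg PBS overlapped with CD8 PBS but not with CD4 PBS.

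Cxcr6 was the 1 receptor called higher in both DTx groups than in Treg PBS, with log2 differences of 2.43 for CD4 DTx (SE 0.42, adjusted p = 0.00408 in limma) and 2.46 for CD8 DTx (SE 0.42, adjusted p = 0.00291 in limma). In CD4 DTx against Treg PBS 1.56% of all genes were called higher, 2.45% lower and 4.01% either way, and in CD8 DTx 2.14%, 2.79% and 4.93%. Not overlapping with Treg PBS were 2 receptors in CD4 DTx and 4 in CD8 DTx, against 25.4% and 22.6% of all genes. Both calls held in every alternative setting, 18 for CD4 DTx and 19 for CD8 DTx. The change after DTx was 16.9-fold in CD4 (log2 fold change 4.16, SE 0.47, adjusted p = 1.88e-04 in limma) and 6.21-fold in CD8 cells (2.61, SE 0.47, limma, adjusted p = 0.00468). Under PBS the CD8 libraries were above the CD4 libraries, but the difference was not called (log2 fold change 1.57, limma, adjusted p = 0.314). The difference in effect between the cell types, tested below as an interaction, was not called either. Treg PBS was 3.13-fold above CD4 PBS, short of the threshold (log2 fold change 1.73, SE 0.47, limma, adjusted p = 0.0211). Without CD8 PBS replicate 3 the CD8 rise was no longer called, at 2.28 on the log2 scale (limma, adjusted p = 0.0909).

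Cx3cr1, the fractalkine receptor, marked CD8 cells after ablation. It was at 3305, 9946 and 3318 normalized reads in CD8 DTx, against 605 and 165 in CD8 PBS. CD4 cells had 217 and 170.4 under PBS and 511, 997 and 931 under DTx, and Treg PBS had 616, 468 and 244. The CD8 DTx libraries were above all others, with replicate 2 at 3 times the other CD8 DTx libraries. CD4 DTx libraries exceeded both CD4 PBS libraries but overlapped with Treg PBS.

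For Cx3cr1 the log2 fold change after DTx was 3.91 in CD8 cells (SE 0.62, limma, adjusted p = 0.00239), or 14.3-fold by the means. In CD4 cells it was 2.01 (SE 0.62, limma, adjusted p = 0.0513), just outside the call, and 6 of 17 alternative settings did call it, DESeq2 (adjusted p = 0.00626) and the replicate block (adjusted p = 0.0150) among them. CD8 DTx exceeded Treg PBS by 3.53 (SE 0.55, limma, adjusted p = 0.00171), a call kept in all 19 settings. Cd8a in CD4 DTx replicates 1, 2 and 3 was at the 0.256%, 1.77% and 3.24% of the CD8 DTx mean given above, and the part of CD8 cells in the CD4 values of Cx3cr1 was not tested.

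NK cells express Cx3cr1 as well, and the NK marker Ncr1 was highest in the same CD8 DTx library. Replicates 1, 2 and 3 of CD8 DTx had 17.6, 2147 and 599 normalized reads of Ncr1, and replicates 2 and 3 of CD8 PBS 956 and 25.3. Within CD8 DTx the lowest library had a sum of 646 for the 4 NK markers, and Klrb1c and Klri2 were at 292 and 299 or more in every CD8 DTx library. In CD4 cells the 4 NK markers summed to 45.6 and 275 under PBS and to between 232 and 788 under DTx, which overlap. The part of NK cells in the Cx3cr1 values of CD8 or CD4 cells was not tested. With both replicate 2 libraries of CD8 cells left out, a setting chosen after the data were seen, the Cx3cr1 rise in CD8 cells was 4.32 on the log2 scale. It leaves 1 CD8 PBS library, the lower one for Cx3cr1. Ncr1 is at 25.3 in that library and at 17.6 and 599 in the CD8 DTx libraries kept, so this setting was no test of the part of NK cells. Without CD8 PBS replicate 3 the rise was 2.98 and not called (limma, adjusted p = 0.0556).

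**Figure D2:**
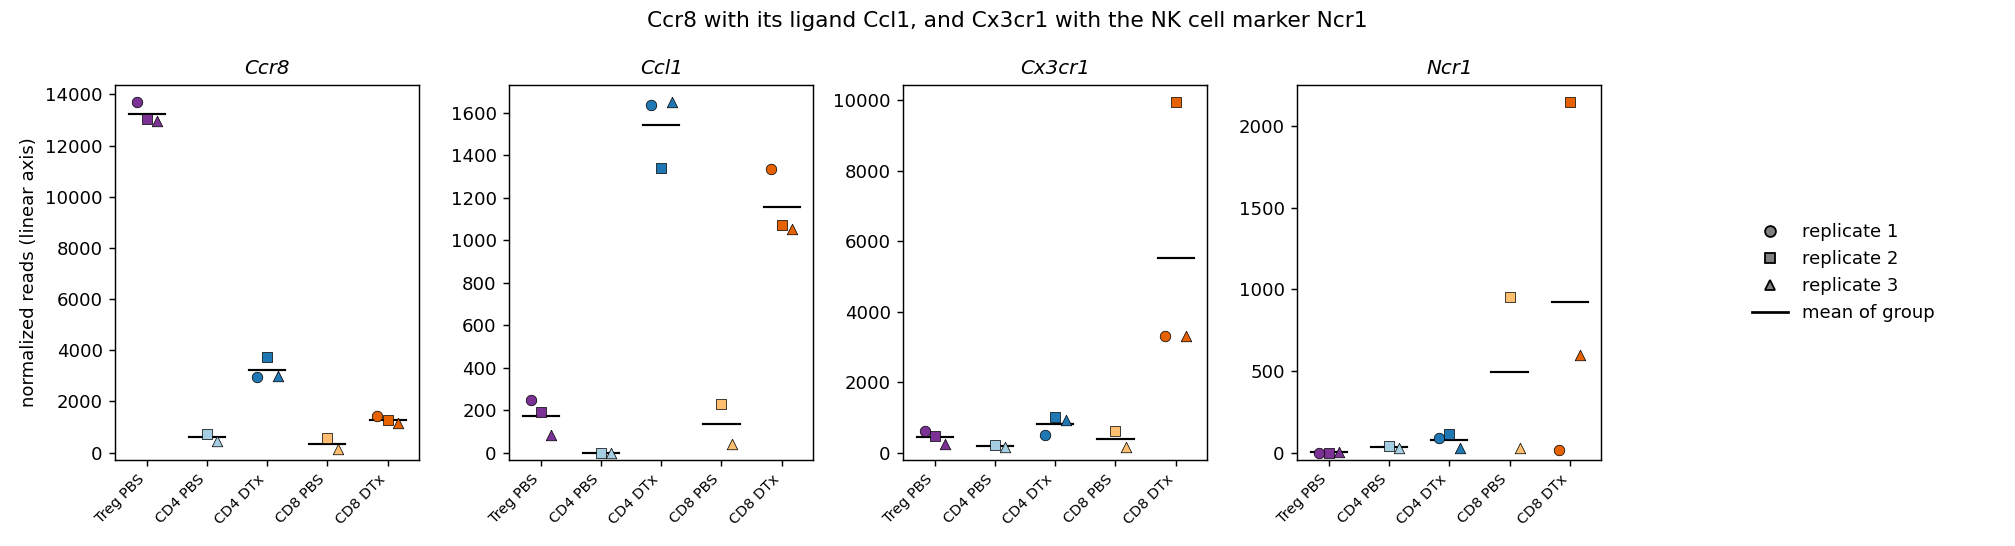
Normalized reads, on linear axes, of Ccr8 and of its ligand Ccl1, and of Cx3cr1 and the NK cell marker Ncr1, in each library. Points are libraries, shapes give the replicate number and bars are group means. Ccl1 is highest in CD4 DTx and CD8 DTx where Ccr8 is intermediate, and CD8 DTx replicate 2 is highest for both Cx3cr1 and Ncr1.

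Cxcr4, the receptor for CXCL12, was the only member whose means were lower after DTx. CD4 PBS had 443 and 1230 normalized reads and CD4 DTx 607, 351 and 371, and they overlapped. CD8 PBS had 598 and 1269, above all CD8 DTx libraries at 342, 385 and 242. Treg PBS had 271, 373 and 979, a range that held most of the others. The log2 fold change after DTx was -0.78 in CD4 (95% interval -2.04 to 0.48, limma, adjusted p = 0.421) and -1.45 in CD8 cells (-2.71 to -0.20, limma, adjusted p = 0.133). Cxcr4 was called in none of the comparisons. In the 3 PBS groups replicate 3, the one with Ddx3y, was the highest library. This did not hold under DTx, where replicate 1 was highest in CD4 cells and replicate 3 was lowest in CD8 cells.

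**Figure D3:**
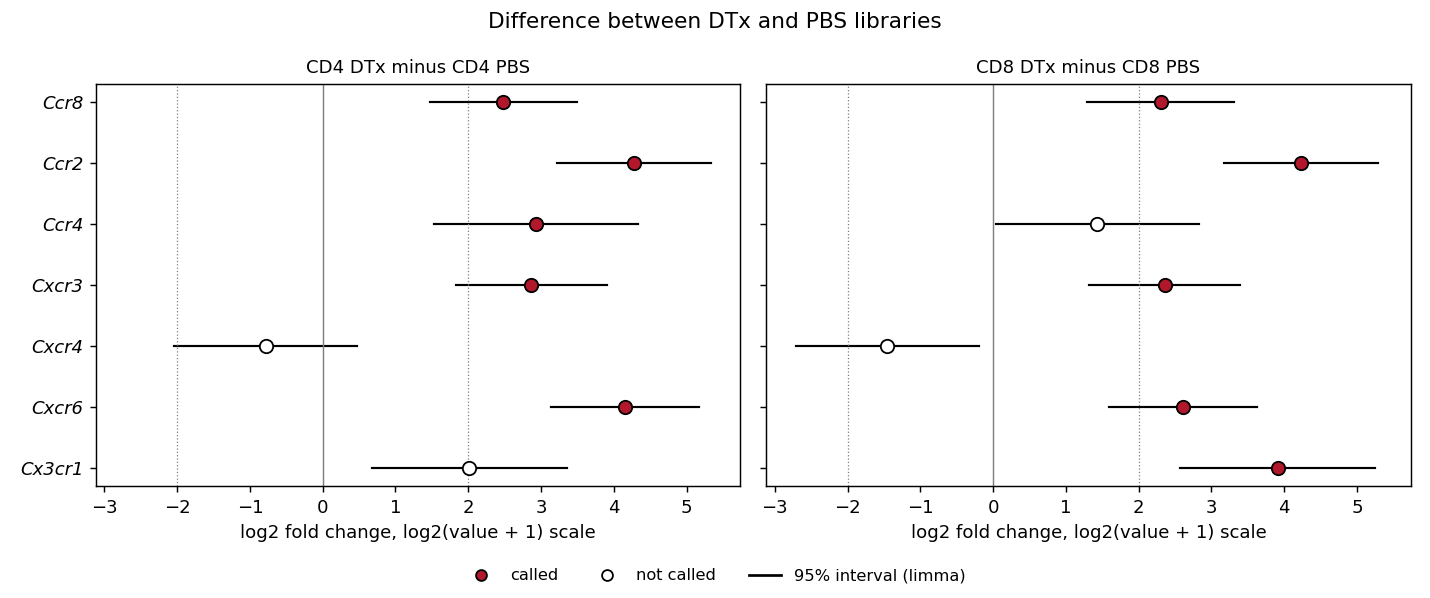
Log2 fold changes of the 7 receptors between DTx and PBS libraries in CD4 (left) and CD8 cells (right), on the log2(value + 1) scale. Bars are 95% intervals of the limma fit, filled points were called, and dotted lines mark the 4-fold threshold. Ccr2 is above 4 in both panels, Ccr4 and Cx3cr1 are each filled in one panel only and Cxcr4 is left of 0 in both.

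Whether the effect of DTx differed between CD4 and CD8 cells was tested as an interaction in limma, and 0 of the 7 receptors were called, all with an adjusted p of 1. Of all genes 0.0474% were called, 0.0237% in each direction, and 4.05% had an unadjusted p under 0.05. Unadjusted p-values were under 0.05 for 2 of them, Cxcr6 (difference 1.55) and Cx3cr1 (-1.90). With edgeR and DESeq2 the count of receptors called was also 0. For Ccr4 the interval of the difference in effect, CD4 minus CD8, was -0.48 to 3.48, so a difference was not shown.

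The level after ablation did differ for 2 receptors. Between CD8 DTx and CD4 DTx, Ccr4 was 11.9-fold lower in CD8 DTx (log2 fold change -3.73, SE 0.57, limma, adjusted p = 0.00849) and Cx3cr1 6.79-fold higher (2.61, SE 0.55, adjusted p = 0.0367 in limma), where 1% of all genes were called, 0.576% higher and 0.426% lower. The Ccr4 call was lost in 1 of 19 alternative settings, the fit of these groups alone (limma, adjusted p = 0.0513), and the Cx3cr1 call in 7 of 19. Without CD8 DTx replicate 2 the Cx3cr1 difference was 2.08 (limma, adjusted p = 0.147). Ccr8 was lower in all CD8 DTx than in all CD4 DTx libraries but not called (log2 fold change -1.33, limma, adjusted p = 0.171). Ccr2, Cxcr3 and Cxcr6 overlapped, with differences of -0.04, 0.31 and 0.03. Altogether 3 receptors did not overlap between the DTx groups, against 13.9% of all genes.

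Before ablation 0 receptors were called between CD8 PBS and CD4 PBS, where 0.908% of all genes were (0.742% higher and 0.166% lower in CD8 PBS), and edgeR and DESeq2 gave 0 as well, although 3 (Ccr8, Ccr4 and Cxcr6) had an unadjusted p under 0.05 in limma, as had 6.53% of all genes. Ccr4 was lower in both CD8 libraries (log2 fold change -2.23, limma, adjusted p = 0.282), and with the replicate block it was called (limma, adjusted p = 0.0302). Cxcr6 was higher in both (1.57, limma, adjusted p = 0.314). The other 5 overlapped, beside 42.4% of all genes that did not.

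**Figure D4:**
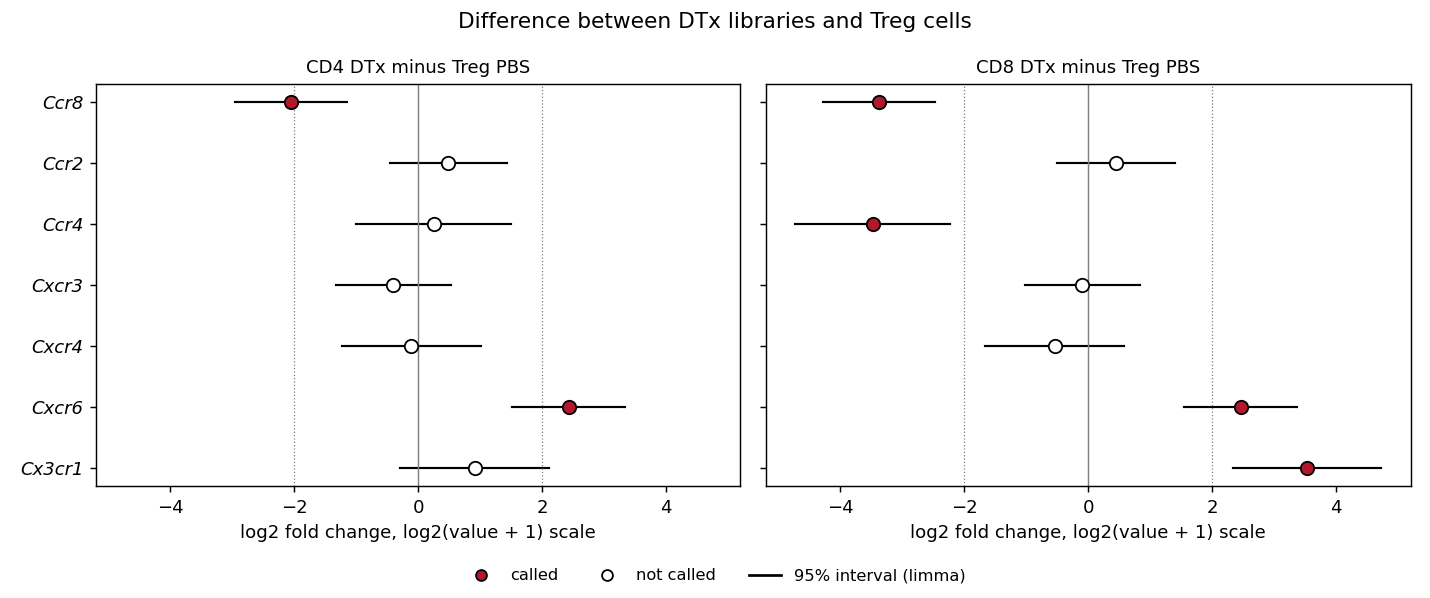
Log2 fold changes of the 7 receptors in CD4 DTx (left) and CD8 DTx (right) relative to Treg PBS, on the log2(value + 1) scale, with 95% intervals of the limma fit. Filled points were called and dotted lines mark the 4-fold threshold. Cxcr6 is right of 2 and Ccr8 left of -2 in both panels, while Ccr4 and Cx3cr1 are filled in the CD8 panel only.

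Levels of different receptors were compared per kilobase of annotated exon. In Treg PBS Cxcr3 (11793 ± 4559 normalized reads per kilobase, SD, n = 3), Ccr8 (11262 ± 341) and Cxcr6 (8813 ± 3004) were the highest, and their libraries overlapped. After DTx Cxcr6 stood alone, at 47609 ± 18227 per kilobase in CD4 and 48285 ± 17112 in CD8 cells (SD, n = 3), above Cxcr3 at 9067 ± 3979 and 10953 ± 3466. Lowest of the family per kilobase were Cx3cr1 in CD4 DTx (180.4 ± 58.6) and Ccr4 in CD8 DTx (61.9 ± 40.8). Exon lengths are of GENCODE gene models of GRCm38, and the transcripts these cells use were not measured.

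A list of 10 further signalling chemokine receptors was followed beside them. After DTx 3 were called higher in each cell type, Ccr1, Ccr3 and Xcr1 both times, and Ccr7 was called lower in both. Cxcr1 was also called lower in CD4 cells, and Ccr9 and Cxcr5 in CD8 cells. Cxcr1 was low in CD4 PBS already, at 26.0 and 48.9 normalized reads, against 0 to 2.04 in CD4 DTx. Of all genes 5.06% were called higher and 1.79% lower in CD4 cells, and 3.87% and 1.59% in CD8 cells. The median log2 fold change of the 10 was -0.33 in CD4 cells and -0.26 in CD8 cells, where Cxcr1 was at 0 in all libraries. In Treg PBS against CD4 PBS the counts were 3 higher (the same 3 genes) and 3 lower (Ccr7, Ccr9 and Cxcr1). Of all genes 7.85% were called higher there and 2.35% lower.

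Ccr1, a receptor for inflammatory chemokines such as CCL3 and CCL5, had 39.6 and 28.4 normalized reads in CD4 PBS, and 872, 943 and 890.2 in CD4 DTx. In CD8 cells it was at 81.4 and 24.0 under PBS and at 435, 567 and 458 under DTx, and Treg PBS had 827, 1186 and 1268. All DTx libraries exceeded all PBS Tconv libraries. Its log2 fold change after DTx was 4.71 in CD4 and 3.42 in CD8 cells (SE 0.45 in both, limma, adjusted p = 9.1e-05 and 0.00109). Ccr7, the receptor for lymphoid homing, went the other way, from 30630 and 34691 in CD4 PBS to 2713, 1241 and 913 in CD4 DTx, and from 19947 and 28669 in CD8 PBS to 2080, 1431 and 516 in CD8 DTx. Its log2 fold changes were -4.49 and -4.37 (SE 0.67, limma, adjusted p = 0.00102 and 0.00217). Ccr3, the eotaxin receptor, was at 0 in all 4 PBS Tconv libraries and at 391, 705 and 586 in Treg PBS, at least 137-fold higher than in CD4 PBS taking 3 reads per library as the floor. In the DTx groups Ccr3 was at 15.0 to 91.5 and was called lower than in Treg PBS in both.

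**Figure D5:**
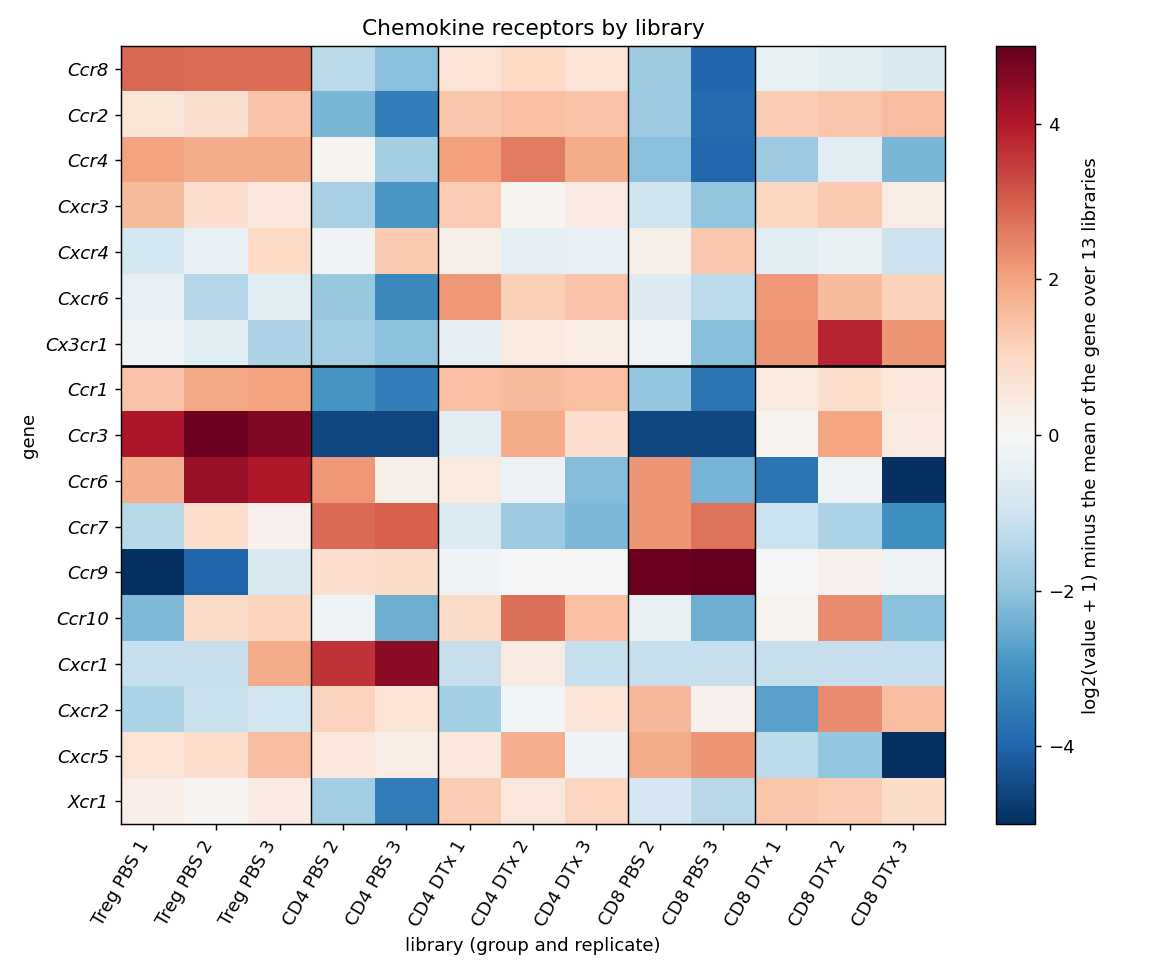
The 7 receptors (above the line) and 10 further signalling chemokine receptors in the 13 libraries, as log2(value + 1) minus the mean of the gene, with colours ending at -5 and 5. Columns are libraries by group and replicate. Ccr7 is above its mean in the 4 PBS Tconv libraries where Ccr8, Ccr2 and Cxcr3 are below theirs.

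Of 13 ligands of the 7 receptors, 10 were in the table. Ccl1, the ligand of Ccr8, passed the test after DTx in CD4 and in CD8 cells, higher each time. Its values were 0 and 0 normalized reads in CD4 PBS, 1634, 1340 and 1647 in CD4 DTx, 226 and 38.7 in CD8 PBS, 1335, 1072 and 1053 in CD8 DTx and 248, 191 and 83.6 in Treg PBS. Both DTx groups were thus above Treg PBS in Ccl1 (log2 fold change 3.27 and 2.85, limma, adjusted p = 0.00514 and 0.00919) and below it in Ccr8. Ccl22, a ligand of Ccr4, was at 114, 269 and 28.3 in Treg PBS and at 0 in all 6 DTx libraries, and was called lower in both DTx groups than in Treg PBS. Ccl7 was the only other ligand called after DTx, lower in CD8 cells, where it was at 0 in the DTx libraries and only at 13.3 and 74.1 under PBS.

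Among 17 genes of receptor signalling, 1 was called after DTx in CD4 cells and 0 in CD8 cells. It was Gng2, a G protein gamma subunit (log2 fold change 2.15 in CD4 cells, SE 0.23, limma, adjusted p = 1.52e-04). Gng2 was also higher in every CD8 DTx library (5980 to 7101 normalized reads) than in CD8 PBS (1384 and 2002), though not called there. In limma 2 of the 17 had an adjusted p under 0.05 in each of these comparisons, as had 12.7% of all genes in CD4 and 10.9% in CD8 cells. Called either way were 6.85% and 5.46% of all genes. Pik3r5, a regulatory subunit of the phosphoinositide 3-kinase that G proteins activate, was lower in Treg PBS than in both PBS Tconv groups. Of 8 regulators of G protein signalling, which end the signal of such receptors, Rgs1 and Rgs16 were called higher in Treg PBS than in CD4 PBS and Rgs16 higher in CD4 DTx. The shares of all genes called higher in these comparisons were 7.85% and 5.06%. Rgs1 was at 7086, 9197 and 28486 in Treg PBS and at 1438 and 5062 in CD4 PBS. Rgs16 was at 0 in 1 CD4 PBS library and at 112 in the other, against 664 to 4169 in Treg PBS and 541 to 896 in CD4 DTx.

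Of 5 genes of egress and lymphoid homing, Ccr7 included, Treg PBS had 4 called lower relative to CD4 PBS, where 2.35% of all genes were. One of the 4, S1pr5, was low in CD4 PBS as well, at 10.9 and 33.7 normalized reads against 0 in Treg PBS. After DTx Ccr7 passed as lower and S1pr5, a sphingosine phosphate receptor, higher in both cell types. S1pr1, another receptor of that kind, had 22277 and 31994 normalized reads in CD4 PBS, 20310, 21272 and 16693 in CD4 DTx and 3397, 5608 and 6404 in Treg PBS. It was thus far lower in Treg cells than in every CD4 library (log2 fold change -2.43 against CD4 PBS, SE 0.32, limma, adjusted p = 2.80e-04).

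The genes whose pattern was most like each receptor were found by the root mean square difference of centred log2(value + 1) over the 13 libraries, a description of these libraries without a test. Nearest to Ccr8 were Srxn1 (0.53), Ctla4 (0.59) and Sdcbp2 (0.69). Nearest to Ccr4 were Maf (0.68), Plcb4 (0.69) and Bmp7 (0.78), each of which was also low in CD8 DTx, with Maf at a mean of 196 there against 2684 in CD4 DTx. Ccr2 lay nearest to Adam8 (0.37), Atp2b4 (0.40) and S100a4 (0.44), and Cxcr3 to S100a11 (0.28), Hopx (0.32) and Tpi1 (0.37). Cxcr6 had Il18rap (0.46), Serpinb6b (0.53) and Ly6g5b (0.54) beside it, and Cx3cr1 had Smpdl3b (0.71), Sepn1 (0.72) and Serpinb9 (0.73). Cxcr4 lay nearest to Tob1 (0.31), the immediate early gene Ier2 (0.34) and Dnajb9 (0.38).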

How the data were processed

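The deposited table holds 1 value per gene and library, which the study calls FPM. Per the labels and the methods of the study, cells were sorted, libraries were made with a template-switching kit for low input, and the authors trimmed reads with Cutadapt, aligned them with hisat2 to NCBIM37 (mm9), kept unique alignments and scaled the counts with a normalization that uses intergenic reads. The labels and the methods name different kits. The read counter and its strand setting are not given in the sources used here. The deposited values are a normalized signal, and dividing each library by its smallest step gave whole reads for 100% of values within a tolerance of 0.01.

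Genes with a value of at least 10 in at least 2 libraries (12667 of 12963) were tested with limma 3.58.1 in R 4.3.3 on log2(value + 1), with 5 group means over 13 libraries, moderated variances with a trend and Benjamini-Hochberg adjustment. Fold changes are on that scale, which understates changes of low genes. Ratios are of group means. The alternatives were edgeR 4.0.16 and DESeq2 1.42.0 on recovered reads, other scalings, pseudocounts and filters, array weights, a replicate block, fits of the compared groups alone and leaving out each library. The limma, edgeR and DESeq2 calls of CD4 DTx against CD4 PBS were tried on counts simulated with known changes in CD4 DTx. The simulated spread was fixed and not taken from these libraries, and the other comparisons and steps were not simulated. The receptors and gene lists were chosen with earlier results of these data known. Named genes are the 7 receptors, the called genes of each list with values for those described, and the 3 nearest genes in pattern. Of the lists, 3 genes are not reported here. Among the symbols, 21 had been turned into dates and 53 genes were 0 in all libraries. Replicate numbers were checked for pairing by the correlation of deviations from the group means. Between CD8 DTx and CD4 DTx it was 0.36, 0.21 and 0.59 for numbers 1, 2 and 3, so libraries of the same number deviated alike there. Because the number also goes with sex, this does not establish that they came from the same animals. Between CD8 PBS and CD4 PBS it was 0.19 for both numbers, a single value since 2 libraries deviate equally from their mean, which with 2 pairs does not settle the pairing. In each of the other comparisons at least 1 pair was under 0.1.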

Additional observations from a re-analysis of the deposited data

How the results depend on the processing

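Over 63 results (7 receptors in 9 comparisons) 1162 alternative values were computed, of which 1086 kept direction and call, 30 lost a call, 12 gained one and 34 had the other sign. With 2 libraries in each PBS Tconv group, leaving 1 out leaves a lone library that is assumed to vary like the other groups. Depth limits none of the receptor values.

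Leaving out 1 library at a time gave these lowest and highest counts of genes called and of receptors called. Treg PBS against CD4 PBS had 840 to 1343 genes and 3 to 5 receptors, and against CD8 PBS 544 to 1154 and 3 to 4. CD4 DTx against PBS had 496 to 838 and 3 to 6, and CD8 DTx against PBS 153 to 994 and 1 to 5. CD4 DTx against Treg PBS had 345 to 466 and 1 to 2, CD8 DTx against Treg PBS 451 to 546 and 4 to 4. CD8 against CD4 cells had 57 to 112 and 0 to 1 under PBS and 51 to 131 and 1 to 2 under DTx, and the interaction 0 to 14 and 0 to 0.

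In the same order of comparisons, without a fold threshold 2581, 2367, 1612, 1377, 1002 and 1089 genes were called, and 208 for CD8 DTx against CD4 DTx. Array weights gave 1814 genes for Treg PBS against CD8 PBS, 1305 and 1441 after DTx in CD4 and CD8 cells, 842 for CD4 DTx against Treg PBS, 255 and 282 for CD8 against CD4 under PBS and DTx, and 50 for the interaction. Fitting the compared groups alone gave 201 genes and 0 receptors for CD8 DTx, 3 receptors for CD4 DTx, 34 genes for CD8 against CD4 under PBS, and 59 genes and 0 receptors under DTx. With edgeR 323 genes were called for CD4 DTx against Treg PBS and 76 for CD8 DTx against CD4 DTx, and with DESeq2 230, 233 and 70 for CD8 against CD4 under PBS, under DTx and for the interaction. TMM, edgeR and array weights left 1 receptor for CD4 DTx against Treg PBS. With both CD8 replicate 2 libraries left out, chosen after the data were seen, CD8 against CD4 had 37 genes and 1 receptor under PBS (Ccr8, -2.25, limma, adjusted p = 0.0230), 78 genes and 1 receptor under DTx, and 2 genes for the interaction. Quantile scaling moved the share of called genes that were higher from 76.9% to 63.9% in Treg PBS against CD4 PBS and from 39.0% to 50% in CD4 DTx against Treg PBS, where edgeR gave 52.0%, and array weights moved it from 70.8% to 49.7% after DTx in CD8 cells.

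With the replicate block the comparison of CD8 DTx with CD4 DTx, where libraries of the same number deviated alike, had 179 genes called and the same 2 receptors (Ccr4 and Cx3cr1). Elsewhere the check did not establish that libraries of the same number deviate alike, though the numbers also go with sex. There the block gave 1 receptor between CD8 PBS and CD4 PBS (Ccr4, -2.23, limma, adjusted p = 0.0302), 6 receptors in CD4 DTx, Cx3cr1 being added, and turned Cxcr6 in Treg PBS against CD8 PBS to -0.10.

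The sign turned where differences were small. Array weights gave -0.12 for Cxcr6 in Treg PBS against CD8 PBS, 0.16 for Cxcr3 in CD8 DTx against Treg PBS and -0.032 for Cxcr3 in the interaction, quantile scaling gave -0.058 for Cxcr6 in CD8 DTx against CD4 DTx, and TMM gave -0.00286 for Ccr2 in CD8 PBS against CD4 PBS. Without the CD8 replicate 2 libraries Ccr2 and Cx3cr1 were at -1.03 and -0.22 in CD8 PBS against CD4 PBS, and Ccr8 and Ccr2 at -0.92 and -0.99 in the interaction. Leaving out 1 library, Cxcr4 ran from -1.41 to 0.063 in Treg PBS against CD4 PBS and from -0.49 to 0.43 in CD4 DTx against Treg PBS. In Treg PBS against CD8 PBS Cxcr6 ran from -0.18 to 0.49 and Cx3cr1 from -0.55 to 1.32, and Cxcr3 in CD8 DTx against Treg PBS from -0.32 to 0.20. In CD8 PBS against CD4 PBS Ccr2 ran from -1.03 to 1.04, Cx3cr1 from -0.22 to 1.65 and Cxcr4 from -0.50 to 0.97, and in CD8 DTx against CD4 DTx Ccr2 from -0.11 to 0.015 and Cxcr6 from -0.24 to 0.32. In the interaction Ccr2 ran from -0.99 to 1.08, Ccr8 from -0.91 to 1.27, Cxcr3 from -0.13 to 1.15 and Cxcr4 from -0.062 to 1.41. The cause was not tested.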

Other observations

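Of 5 genes listed as atypical chemokine receptors, a class set apart by its lack of G protein signalling, 1 could be tested. Ccrl2 was higher in Treg PBS than in CD4 PBS, at a mean of 2893 against 125 normalized reads (log2 fold change 4.74 in limma). It was lower in both DTx groups than in Treg PBS, by log2 fold changes of -2.79 in CD4 DTx and -2.42 in CD8 DTx. Rgs2, a regulator of G protein signalling, was called lower in both DTx groups than in Treg PBS as well. S1pr5 was at 0 in all 3 Treg PBS libraries and called higher in both DTx groups than in Treg PBS, with 229 to 311 normalized reads in CD4 DTx and 547 to 1287 in CD8 DTx.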
